A study of Mus musculus with 6 samples.

Results

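The genes described here are 10 whose products act when the muscle fibre membrane is torn: the ferlins Dysf and Myof, the muscle caveolin Cav3, the repair ligase Trim72, the annexins Anxa1, Anxa2 and Anxa6, the muscle calpain Capn3, and the membrane-remodelling ATPases Ehd1 and Ehd2. They were chosen by name, as the rows carrying these symbols, and all 10 were found among the 19458 genes listed in each library. RNA-seq libraries came from the gastrocnemius, the large calf muscle, of C57BL/6 mice aged 9 weeks: 3 from mice labelled tmem182-/- (knockout) and 3 from wild-type mice. Tmem182 encodes a transmembrane protein abundant in skeletal and heart muscle, and the comparison asks which transcripts differ in its absence. The sources used here give neither the making of the allele nor whether a library came from 1 animal or a pool. The p-values therefore reflect the spread of these samples alone, and part of it may be technical.

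A contracting fibre tears its plasma membrane often, and the inflow of calcium starts the repair. Dysferlin and myoferlin, large proteins with many calcium-binding C2 domains, promote fusion of vesicles at the wound, the ligase TRIM72 (MG53) gathers those vesicles, and annexins bind exposed phospholipid in the presence of calcium and build a cap over the tear. Caveolin-3 forms the caveolae that buffer membrane tension, calpain-3 is a calcium-dependent protease of the sarcomere, and EHD proteins recycle membrane, with EHD2 sitting at the neck of caveolae. Loss of dysferlin, calpain-3 or caveolin-3 causes muscle disease in people and mice.

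The knockout label was checked on its own gene. Tmem182 was at 6.23, 4.30 and 2.17 FPKM (fragments per unit of transcript length and of library size) in knockout libraries 1, 2 and 3 and at 147.48, 121.39 and 120.97 FPKM in wild-type libraries 1, 2 and 3. The source labels of knockout libraries 2 and 3 carry other Tmem numbers than the genotype label, which was followed. The extraction protocol speaks of cultured muscle cells, whereas tissue and source name muscle, and Acta1, the skeletal actin, lay between 27925.9 and 34045.4 FPKM. Total expected counts ranged from 16212341 to 18672630 per library. Knockout library 1 stood apart: its 10 most abundant genes took 22.0% of counts, against 28.2% to 31.9% in the other 5, and its TMM scaling factor was 1.19 against at most 1.04. In its FPKM the median gene tested was 1.24 times the median of the other 5 libraries.

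None of the 10 membrane repair genes passed the test. At an adjusted p under 0.05 in edgeR's quasi-likelihood test, 0 of 10 were called higher or lower, where the share over all 12774 genes tested was 0.00783%, the single gene Tmem182. At an unadjusted p under 0.05 the count was also 0 of 10, against 3.55% of all genes, and DESeq2, which called 0.047% of all genes, called 0 of the 10. Knockout and wild-type libraries overlapped in all 10 after TMM scaling, while the groups stood apart in 9.18% of all genes, 4.67% higher and 4.51% lower in the knockout. The median log2 fold change of the 10 was 0.02, with 5 members above 0 and 5 below, beside a median of 0.0046 over all genes. Their median absolute log2 fold change was 0.11, beside 0.12 for all genes tested.

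**Figure D1:**
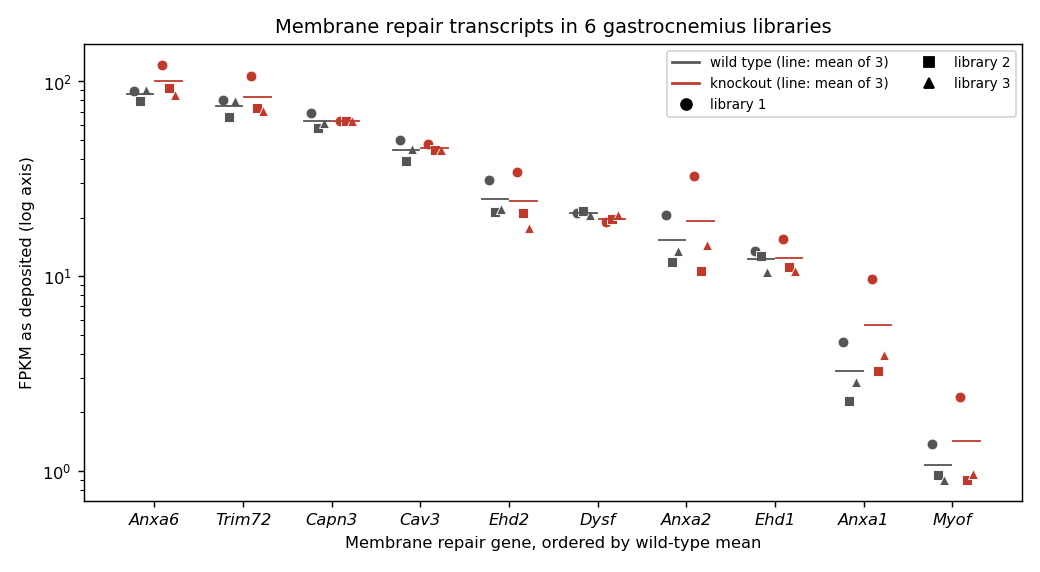
FPKM of each membrane repair gene in 3 wild-type (grey) and 3 knockout (red) libraries on a log axis, with short lines at the group means and symbols for the library number. The groups overlap in all 10 genes, and the red circle of knockout library 1 stands above the rest for Anxa1 (9.64 FPKM), Anxa2 (32.70 FPKM) and Myof (2.39 FPKM).

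The levels spanned a wide range on the length-scaled FPKM scale. Anxa6 was the highest member in wild type at 86.4 ± 6.07 FPKM (SD, n = 3), followed by Trim72 at 75.0 ± 7.90, Capn3 at 62.7 ± 5.85, Cav3 at 44.7 ± 5.61, Ehd2 at 24.9 ± 5.41, Dysf at 21.1 ± 0.50, Anxa2 at 15.3 ± 4.69, Ehd1 at 12.2 ± 1.56, Anxa1 at 3.26 ± 1.2 and Myof at 1.08 ± 0.26 FPKM (SD, n = 3 each). The order of means was the same in the knockout. Neighbours whose wild-type libraries did not overlap were Capn3 and Cav3, Cav3 and Ehd2, Ehd1 and Anxa1, and Anxa1 and Myof. Ranges of the remaining neighbours in that order overlapped.

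Promoters are shown for 2 pairs of members that shared their highest library. In FPKM, Cav3 and Capn3 were both highest in wild-type library 1 and lowest in wild-type library 2, whereas Anxa1 and Anxa2 were both highest in knockout library 1. That library was the highest for 7 of the 10 genes, so this trait does not set Anxa1 and Anxa2 apart. After TMM scaling knockout library 1 was the lowest for Cav3 and Capn3. Each sequence is the 250 bases before the RefSeq start on GRCm38.p6, written on the gene's own strand. In Cav3 (chr6:112459255-112459504, plus strand) and Capn3 (chr2:120463343-120463592, plus strand, the first of 2 starts in the table) the capitals mark E-boxes (CANNTG), the letters bound by myogenic bHLH factors, and in Capn3 also a match to the MEF2 consensus. In Anxa1 (chr19:20390672-20390921, minus strand) and Anxa2 (chr9:69453433-69453682, plus strand) capitals mark TATAAA and the AP-1 letters TGANTCA.
Cav3: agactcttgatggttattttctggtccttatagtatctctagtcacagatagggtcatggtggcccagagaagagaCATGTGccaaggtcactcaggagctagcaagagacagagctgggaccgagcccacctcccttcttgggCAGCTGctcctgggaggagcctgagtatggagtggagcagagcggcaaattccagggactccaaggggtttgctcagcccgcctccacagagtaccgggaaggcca
Capn3: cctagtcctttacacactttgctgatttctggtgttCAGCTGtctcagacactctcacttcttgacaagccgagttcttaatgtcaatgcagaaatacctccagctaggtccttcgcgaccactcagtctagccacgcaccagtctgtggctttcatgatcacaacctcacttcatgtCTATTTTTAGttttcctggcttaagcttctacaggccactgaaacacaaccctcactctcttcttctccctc
Anxa1: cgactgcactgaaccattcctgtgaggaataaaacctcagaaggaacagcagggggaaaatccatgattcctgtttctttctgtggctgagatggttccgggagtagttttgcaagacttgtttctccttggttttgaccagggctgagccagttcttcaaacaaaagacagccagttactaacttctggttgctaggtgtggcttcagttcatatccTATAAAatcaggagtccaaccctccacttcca
Anxa2: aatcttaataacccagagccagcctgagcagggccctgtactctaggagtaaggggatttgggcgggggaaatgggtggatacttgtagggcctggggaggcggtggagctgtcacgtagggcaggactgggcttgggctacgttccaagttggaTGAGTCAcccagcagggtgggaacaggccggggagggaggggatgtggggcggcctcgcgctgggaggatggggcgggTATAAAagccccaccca

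Both strands were searched. The Cav3 window held the E-box CATGTG at 174 and CAGCTG at 106 bases before the start. The Capn3 window held CAGCTG at 214 bases and the MEF2 match CTATTTTTAG at 72 bases before the start. TATAAA began 32 bases before the start in Anxa1 and 17 bases before it in Anxa2, where TGAGTCA began at 95 bases. Among 32817 promoter windows of the same length, 66.2% held CANNTG, 13.0% held its CAGCTG form, 2.92% the MEF2 consensus, 12.4% TATAAA and 6.75% TGANTCA. Other letters searched were not put in capitals. CATTCC lay at 236 bases in Anxa1, and GGGCGG at 190, 48 and 24 bases in Anxa2. The Cav3 and Capn3 windows shown had neither, and 12.6% and 32.7% of all windows held them. The table held windows for 8 of the 10 genes and none for Anxa6 and Ehd1. Trim72, with 3 E-boxes, and Ehd2, with 1, also had CANNTG, and Dysf, Myof, Anxa1 and Anxa2 had none in these windows. A match is a description of the letters only.

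The ferlins differed in level and in spread. Dysf (Entrez 26903, chromosome 6, 84008590 to 84211060, plus strand of GRCm38, 55 exons in its longest coding transcript) was at 18.89, 19.59 and 20.70 FPKM in knockout libraries 1, 2 and 3 and at 21.13, 21.58 and 20.59 FPKM in the wild-type libraries. All 6 values lay close together, and the highest knockout library was just above the lowest wild-type library. The log2 fold change was -0.11 (SE 0.14, edgeR adjusted p = 0.994), with a 95% interval from -0.42 to 0.21, which as a fold runs from 0.745 to 1.16. Myof (chromosome 19, 37899036 to 38043577, minus strand) is used in myoblast fusion as well as repair. It was at 2.39, 0.90 and 0.97 FPKM in knockout muscle and 1.38, 0.95 and 0.90 FPKM in wild-type muscle. Library 1 was the highest of each group and the other 4 lay together. Its log2 fold change was 0.29 (SE 0.30, 95% interval -0.41 to 1.0), and -0.14 without knockout library 1. Dysf exceeded Myof in every library, by 7.90, 21.8 and 21.3 times in the knockout and 15.3, 22.7 and 22.9 times in wild type, and these ratios overlapped.

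The deposited tables give a further reading on Dysf. Count, FPKM and library total together imply the transcript length by which each count was scaled, and that length moves when the reads are shared differently among transcripts of a gene. For Dysf, which has 12 annotated coding transcripts, the implied length was 6442, 6434 and 6359 bases in the knockout libraries and 6184, 6266 and 6210 bases in the wild-type libraries. All 3 knockout values lay above all 3 wild-type values, a mean difference of 3.08% (two-sided exact permutation p = 0.1, the smallest that 3 against 3 allow). Among 5014 genes with at least 5 FPKM and 200 counts in every library, the groups stood apart in 10.6% and did so with means over 2% apart, a threshold set with the Dysf values known, in 2.03%. Dysf was the only member whose implied lengths separated the groups. That 1 of 10 is near the 10.6% of the 5014 genes, so the count says nothing particular about these genes. The 2.03% share does not serve here, because its threshold was set with the Dysf values known. Myof and Anxa1 were too low to be among the 5014. Ehd2 varied most, by 4.51% from its lowest to its highest library, with groups overlapping, while Cav3, which has 1 annotated transcript, varied by 0.0764%. The longer implied length lowers the Dysf FPKM in the knockout relative to its counts, and after TMM scaling the counts were 102.7, 131.8 and 139.8 CPM (counts scaled to a common library size) in the knockout and 125.4, 140.9 and 137.1 CPM in wild type. Antisense genes overlap Dysf, Trim72, Anxa1 and Anxa2. Whether strand was used in counting is not stated, so reads of such partners cannot be told apart.

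**Figure D2:**
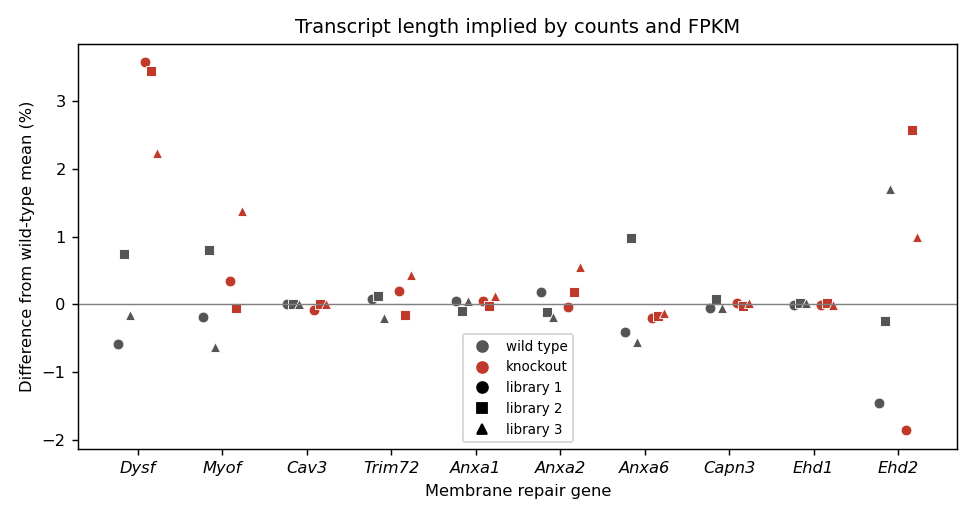
Transcript length implied by count and FPKM, as percent difference from the wild-type mean, for each gene in 3 wild-type (grey) and 3 knockout (red) libraries. All 3 knockout points of Dysf lie above its wild-type points, by 3.08% on average, and the points of the other 9 genes overlap.

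None of caveolin-3, the repair ligase and calpain-3 differed beyond the spread between libraries. Cav3 (Entrez 12391, chromosome 6, 112459505 to 112472872, plus strand, 2 exons) gave 47.64, 44.49 and 44.65 FPKM in knockout muscle and 50.25, 39.03 and 44.81 FPKM in wild-type muscle. In FPKM the wild-type libraries enclosed all 3 knockout libraries, while after TMM scaling knockout library 1, at 45.8 CPM, was below the wild-type range of 46.4 to 54.9 CPM. Its log2 fold change was -0.03 (SE 0.11, 95% interval -0.29 to 0.23). Trim72 (chromosome 7, 128003949 to 128011033, plus strand, 7 exons) gave 106.92, 73.19 and 70.47 FPKM in knockout muscle and 79.92, 65.88 and 79.18 FPKM in wild-type muscle. Knockout library 1 was the highest of the 6 and the other 5 were mixed. Trim72 had a log2 fold change of 0.07 (SE 0.13, 95% interval -0.23 to 0.37) and the interval as a fold ran from 0.856 to 1.29. With library totals in place of TMM, or on the FPKM scale, the sign for Cav3 turned to above 0, by no more than 0.04 on the log2 scale. Capn3 (chromosome 2, 120456019 to 120504913, plus strand) gave 62.66, 62.35 and 62.87 FPKM in knockout muscle and 69.14, 57.76 and 61.11 FPKM in wild-type muscle. In FPKM the knockout libraries were close to each other (highest over lowest 1.01) and lay inside the wild-type range. After TMM scaling they were at 168.3, 207.4 and 212.5 CPM, with the first below and the last above the wild-type range of 191.7 to 211.0 CPM. Its log2 fold change was -0.06 (SE 0.12, 95% interval -0.34 to 0.23), and on the FPKM scale it was 0.0030. The gene Ganc overlaps the 5' part of Capn3 on the same strand.

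Of the annexins, Anxa1 and Anxa2 had the widest spread in FPKM among the 10 genes, while Anxa6 was among the narrowest in wild type. Anxa1 (Entrez 16952, chromosome 19, 20373428 to 20390944, minus strand), also known as an anti-inflammatory mediator of myeloid cells, was at 9.64, 3.26 and 3.96 FPKM in knockout muscle and 4.60, 2.29 and 2.88 FPKM in wild-type muscle. Knockout library 1 was far above the rest, and the other knockout libraries lay within the wild-type range. Anxa1 had a log2 fold change of 0.67 (SE 0.37, 95% interval -0.18 to 1.53, edgeR adjusted p = 0.994), the largest in size among the 10, and it was 0.20 without knockout library 1. It rests on 59 to 216 expected counts per library. In 2 of its 15 alternatives its unadjusted p was under 0.05, but its edgeR adjusted p was 0.845 with the replicate number as a block and 0.997 without knockout library 2. Anxa2 (chromosome 9, 69453620 to 69491795, plus strand) gave 32.70, 10.63 and 14.44 FPKM in knockout muscle and 20.66, 11.84 and 13.49 FPKM in wild-type muscle. Library 1 was again the highest of each group, and knockout library 2 was the lowest of all 6. Its log2 fold change was 0.22 (SE 0.33, 95% interval -0.55 to 0.98), and -0.23 without knockout library 1. Anxa6 (chromosome 11, 54979108 to 55033445, minus strand), the annexin that carries a doubled core domain, was at 121.84, 93.01 and 85.70 FPKM in knockout muscle and 89.23, 79.38 and 90.45 FPKM in wild-type muscle. Knockout library 1 was highest, knockout library 2 was above all wild-type libraries and knockout library 3 was not. Its log2 fold change was 0.13 (SE 0.11, 95% interval -0.13 to 0.39), and 0.087 without knockout library 1.

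Ratios between members take out what a library does to both. The ratio of Anxa2 to Anxa1 in FPKM was 3.39, 3.26 and 3.65 in the knockout and 4.49, 5.17 and 4.68 in wild type. The groups did not overlap, with more Anxa1 for each unit of Anxa2 in the knockout (3.43 ± 0.20 against 4.78 ± 0.35, SD, n = 3 each; two-sided exact permutation p = 0.1, the smallest possible). Of the 45 pairs among the 10 genes, 3 had ratios that separated the groups, or 6.67%, and these were Anxa1 with Anxa2, Anxa1 with Myof and Anxa1 with Ehd2. All 3 hold Anxa1, so they are not separate observations. The share over pairs of all genes was not worked out, so the count says nothing particular about these genes. After adjustment over the 45 pairs the smallest p was 0.942, so none passed. Anxa2 and S100a10, whose proteins form a heterotetramer, kept a ratio between 0.986 and 1.31 over the 6 libraries, while Anxa6 to Anxa2 ran from 3.73 to 8.75. Such steadiness was not particular to Anxa2 and S100a10 (highest over lowest 1.33). Capn3 to Dysf was steadier (1.24), and Ehd2 to Ehd1 (1.38) and Trim72 to Cav3 (1.42) were close to it.

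Neither EHD gene differed beyond the spread between libraries. Ehd1 (chromosome 19, 6276725 to 6300096, plus strand), an ATPase of endocytic recycling, was at 15.54, 11.12 and 10.60 FPKM in knockout muscle and 13.45, 12.77 and 10.47 FPKM in wild-type muscle. Its log2 fold change was -0.06 (SE 0.11, 95% interval -0.31 to 0.20), from -0.13 to -0.0082 with 1 library left out, and above 0 on library totals (0.02) and on the FPKM scale (0.0090). Ehd2 (chromosome 7, 15946958 to 15967567, minus strand) gave 34.13, 21.11 and 17.76 FPKM in knockout muscle and 31.16, 21.49 and 22.11 FPKM in wild-type muscle. In FPKM library 1 was the highest in each group for Ehd2 as for Ehd1, and the groups overlapped. The log2 fold change of Ehd2 was -0.12 (SE 0.17, 95% interval -0.52 to 0.28), and it was -0.28 without knockout library 1. Ehd2 exceeded Ehd1 by 1.68 to 2.32 times over the 6 libraries.

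**Figure D3:**
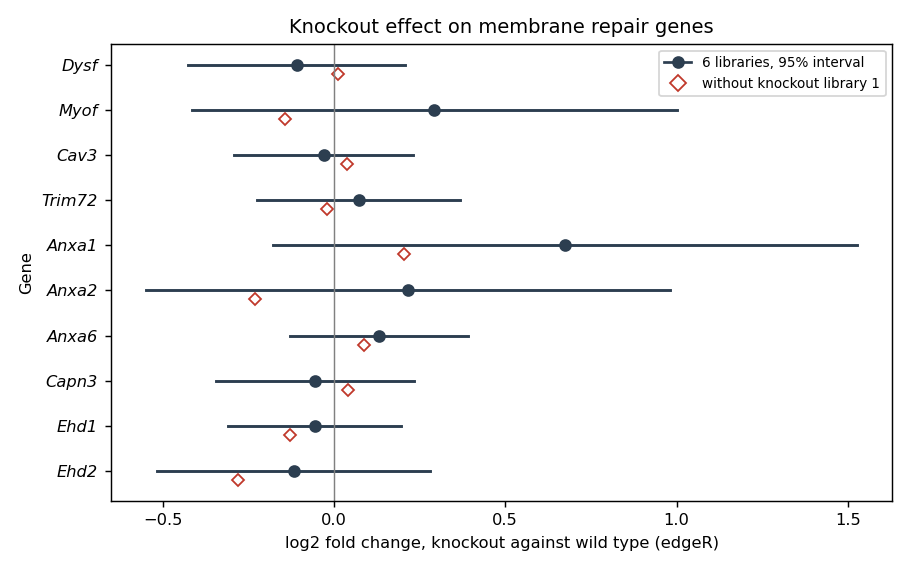
Log2 fold change of each gene, knockout against wild type, from edgeR with its 95% interval (filled circles), and the value without knockout library 1 (open diamonds). All 10 intervals include 0, and the diamonds of Myof, Anxa2, Trim72, Dysf, Cav3 and Capn3 lie on the other side of 0 from their circles.

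Within groups the 10 genes fell along a range of spread. In wild type the highest library exceeded the lowest by 1.05 times for Dysf, 1.14 for Anxa6, 1.2 for Capn3, 1.21 for Trim72, 1.28 for Ehd1 and 1.29 for Cav3. The ratio was 1.45 for Ehd2, 1.53 for Myof, 1.74 for Anxa2 and 2.01 for Anxa1. In 8 of the 10 genes library 1 was the highest of the wild-type libraries. Knockout library 1 was the highest of all 6 in 7 genes, and among all genes tested it was the highest in 62.2%. Against the median of the other 5 libraries it was 0.913 times as high for Dysf, 1.0 for Capn3, 1.07 for Cav3, 1.37 for Anxa6, 1.40 for Ehd1, 1.46 for Trim72 and 1.59 for Ehd2. For Anxa2 it was 2.42, for Myof 2.52 and for Anxa1 2.96 times as high.

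Markers of other cells moved in the same library. All 8 macrophage markers were highest in knockout library 1, at a median of 3.05 times the other libraries, and their summed level was 19.2 to 60.3 FPKM in the knockout and 16.1 to 24.9 FPKM in wild type. Likewise 8 of 8 Schwann cell markers (median 5.23 times, sums of 51.2 to 313.9 and 20.5 to 207.1 FPKM), 8 of 8 adipocyte markers (4.58 times, 147.9 to 321.6 and 129.1 to 202.9 FPKM), 7 of 8 fibroblast markers (1.99 times, 193.0 to 384.9 and 154.7 to 347.5 FPKM) and 6 of 8 endothelial markers (1.71 times, 70.7 to 162.9 and 73.9 to 123.8 FPKM) were highest there. Smooth muscle markers had 5 of 6 highest there (2.0 times, 66.3 to 150.2 and 64.8 to 110.6 FPKM) and tendon markers 2 of 6 (2.08 times, 73.7 to 212.5 and 81.8 to 218.8 FPKM). Satellite cell markers had 0 of 6 (0.937 times, 11.2 to 12.4 and 12 to 13.8 FPKM). Slow fibre markers were highest there in 8 of 8 (4.02 times), but their level varied widely within both groups. Their sums were 2648.7, 1827.3 and 92.5 FPKM in knockout libraries 1, 2 and 3 and 792.2, 85.8 and 659.6 FPKM in wild-type libraries 1, 2 and 3. Fast fibre markers were highest in knockout library 1 in 0 of 8 (0.668 times, 61977.6 to 95669.0 and 84437.7 to 96081.5 FPKM). None of these markers was at 0 in any library. Their part in the spread of Anxa1, Anxa2, Myof and Ehd2 was not tested. In whole muscle, more cells of a type and more RNA per cell cannot be told apart. When slow fibre level was added as a term, 0 of the 10 genes passed, at an Anxa1 log2 fold change of 0.57.

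**Figure D4:**
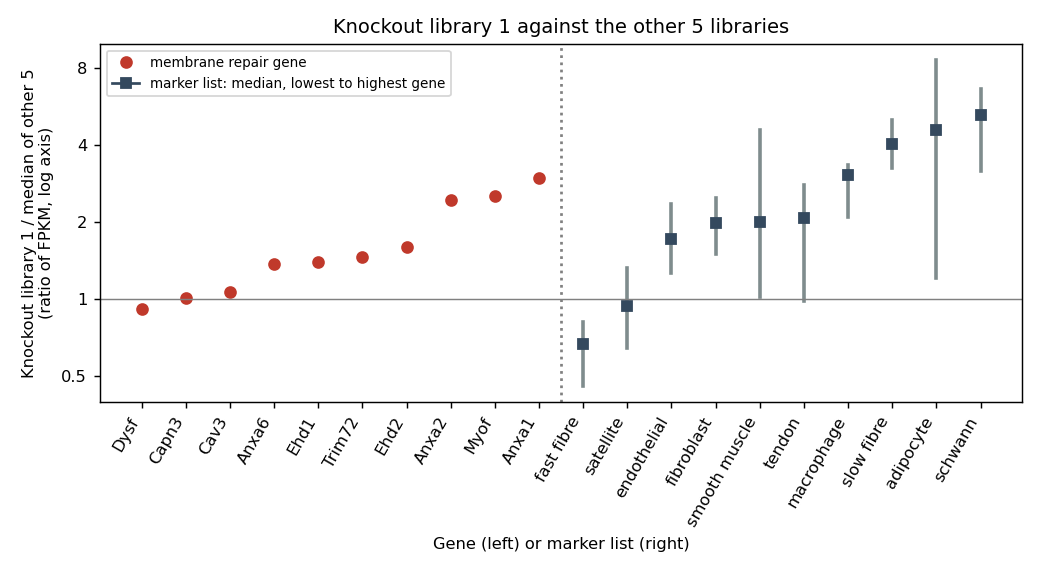
Level in knockout library 1 divided by the median of the other 5 libraries, on a log axis, for each membrane repair gene (circles) and for marker lists (squares at the median gene, bars from the lowest to the highest gene). Dysf, Capn3 and Cav3 lie near 1, below the median gene tested, and after TMM scaling knockout library 1 was their lowest library. Anxa2, Myof and Anxa1 lie between 2.42 and 2.96, values that the ranges of the macrophage, adipocyte and smooth muscle markers all include. The smooth muscle range reaches above 2.51 only through Cnn1, which was at 1.28 FPKM or less and was not tested.

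Other genes of the same roles were taken from a list of 55, of which 54 were in the tables and 51 could be tested. Of these 51, 0 were called higher and 0 lower by edgeR, 0 had an unadjusted p under 0.05, and DESeq2 also called 0, beside the shares of 0.00783%, 3.55% and 0.047% over all genes. Their median log2 fold change was -0.0088, with 25 above 0 and 26 below. After TMM scaling, groups stood apart in 4 of the 51, Cast and Snap23 higher and Cavin1 and Ehd3 lower in the knockout, beside 4.67% and 4.51% of all genes. In FPKM the groups of Cavin1 and Ehd3 overlapped, while Cast, Snap23, Anxa7 and Ehbp1 stood apart, all higher in the knockout. The share of all genes that stood apart in FPKM was not worked out. On that scale the median gene was itself higher in the knockout, by 0.049 in log2 fold change (limma on log2(FPKM + 1)). The FPKM count and its direction therefore say nothing particular about these genes.

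Among ferlin relatives, Fer1l5 and Fer1l6 were tested and did not exceed 1.08 FPKM in any library. Their log2 fold changes were -0.04 (SE 0.22) and 0.30 (SE 0.22), the latter being 0.15 without wild-type library 2 and 0.48 without wild-type library 1. By contrast, Fer1l4 was listed at 0 throughout and Otof, the ferlin of hair cell synapses, at 0.05 FPKM or less. Of 8 caveola genes 0 passed. Cavin1, the coat protein that stabilises caveolae, was at 63.80, 58.28 and 56.04 FPKM in knockout muscle and 69.96, 63.32 and 60.47 FPKM in wild-type muscle (log2 change -0.18, SE 0.10). Cavin4, the muscle cavin, gave a log2 fold change of -0.17 (SE 0.14), which was -0.049 without knockout library 1 and -0.29 without knockout library 3. Pacsin3, an F-BAR protein of caveolae, gave -0.03 (SE 0.12), which was above 0 on library totals and on the FPKM scale. Cav1, the caveolin of endothelial cells and adipocytes, was named after its values were seen; Cav3 stood to it at 0.729 in knockout library 1 and at 0.872 to 1.30 in the other 5.

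Of 10 tested annexin and S100 genes 0 passed. Anxa7 was at 37.90, 35.82 and 36.63 FPKM in knockout muscle and 21.53, 33.32 and 23.84 FPKM in wild-type muscle. The knockout libraries were above all wild-type libraries on this scale but not after TMM scaling (log2 fold change 0.42, SE 0.19). The value was 0.25 without wild-type library 1 and 0.65 without wild-type library 2, and the unadjusted p was under 0.05 in 10 of 16 alternatives, with an adjusted p of at least 0.518 in all of them. The log2 fold change was 0.56 (SE 0.38) for Anxa4 and -0.12 (SE 0.10) for Anxa11, that of Anxa4 being -0.09 without knockout library 1. Of 8 calpain genes 0 passed. Cast, the calpain inhibitor calpastatin, was at 36.87, 24.07 and 23.92 FPKM in knockout muscle and 23.91, 18.34 and 22.70 FPKM in wild-type muscle (log2 change 0.31, SE 0.14, edgeR adjusted p = 0.994). Capn6, a calpain without protease activity, and Capns1, the small calpain subunit, stood at -0.43 (SE 0.22) and -0.0088 (SE 0.12) on the same scale. Without knockout library 1 the value was 0.19 for Cast and -0.25 for Capn6, and without wild-type library 2 it was 0.20 for Cast.

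Of 7 EHD and recycling genes 0 passed, with Ehd4 at 0.32 (SE 0.17), Ehd3 at -0.20 (SE 0.14) and Ehbp1l1 at -0.05 (SE 0.14) on the log2 fold change scale. Without knockout library 1 Ehd4 was at 0.14. Of 16 repair partners 0 passed. Snap23, a SNARE protein of exocytosis, was at 17.47, 14.70 and 14.85 FPKM in knockout muscle and 14.36, 12.65 and 12.91 FPKM in wild-type muscle (log2 change 0.12, SE 0.085). Ahnak2 had a log2 fold change of 0.44 (SE 0.37), or -0.12 without knockout library 1, and Bin1, which shapes T-tubules, of -0.13 (SE 0.17), or 0.0069 without knockout library 1.

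**Figure D5:**
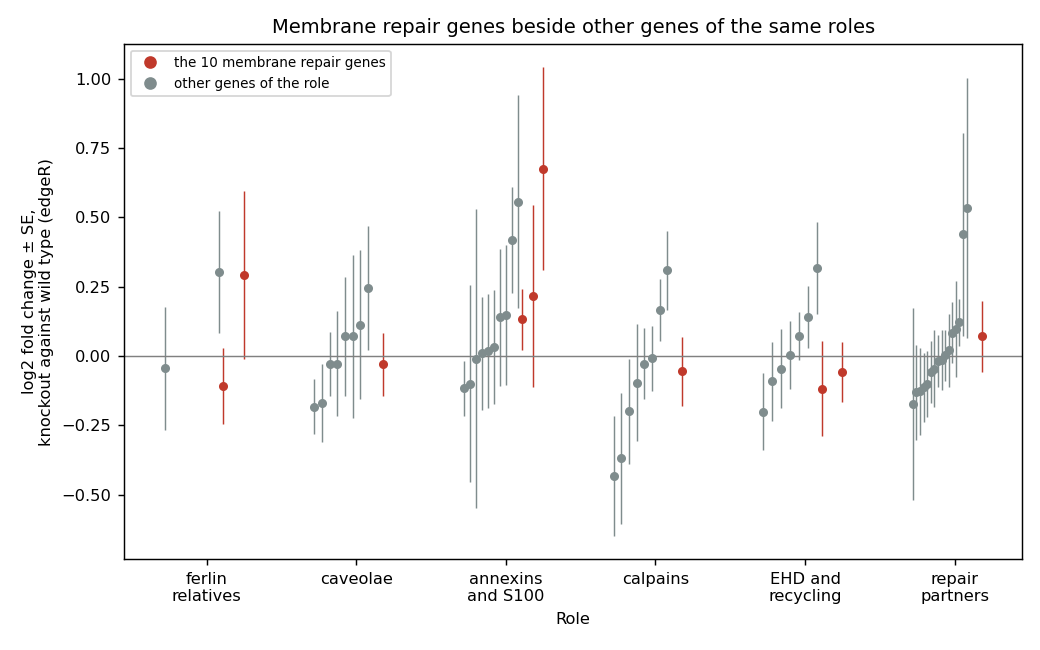
Log2 fold change ± SE from edgeR, knockout against wild type, for the 10 membrane repair genes (red) and the 51 tested genes of the same roles (grey), each point 1 gene. None of the 61 points passed an adjusted p of 0.05, and the annexin column reaches highest, with Anxa1 at 0.67.

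The genes whose levels followed Dysf, Cav3 and Trim72 most closely were read as a description on TMM-scaled log2 CPM, the scale of every r and rho here, over 6 libraries that share their depth and scaling, among 6127 genes with a mean of at least 5 FPKM. They were the highest of many, so no p is given. For Dysf they were Jph1, which tethers T-tubules to the sarcoplasmic reticulum (r = 0.999, rho = 1.0), and Man2a2, a Golgi mannosidase (r = 0.999, rho = 1.0), and 744 genes had r above 0.9. Without knockout and wild-type library 1, the libraries farthest from the Dysf median on that scale, r was 0.982 and 0.998. For Cav3 they were Cox11 (r = 0.987, rho = 0.771) and Pex7 (r = 0.986, rho = 0.829), at r of 0.231 and 0.709 without knockout library 1 and wild-type library 2, so the first rests on those libraries. For Trim72 they were Cox6b1, a cytochrome oxidase subunit (r = 0.992, rho = 0.943), and Mrpl14, a mitochondrial ribosomal protein (r = 0.984, rho = 1.0), at 0.976 and 0.982 without these libraries. Cox6b1 was at 549.71, 355.25 and 325.67 FPKM in knockout muscle and 385.09, 305.98 and 397.56 FPKM in wild-type muscle, highest in knockout library 1 and lowest in wild-type library 2 as Trim72 was.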

How the data were processed

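Gene tables of 6 mouse gastrocnemius libraries were used, 3 per genotype. The deposited counts are expected counts (26.2% to 27.5% not whole) and the deposited expression values are FPKM, by the authors. The genome build GRCm38 and the tools RSEM 1.2.12, HISAT2 2.0.4 and Bowtie2 2.2.5 are named in the submitters' processing notes; their roles, the annotation and strand handling are not stated. Counts were rounded, filtered with filterByExpr (minimum count 10), scaled by TMM and tested in edgeR 4.0.16 (R 4.3.3) by quasi-likelihood, with Benjamini-Hochberg adjustment over 12774 genes. It was tested on simulated data. The replicate block, other scalings and filters, leaving out each library and a slow fibre covariate were further alternatives. DESeq2 1.42.0 and limma 3.58.1 (on log2(FPKM + 1) and log2(FPKM + 0.1)) were alternatives. Each SE was taken as the size of the log2 fold change over root F. Positions and overlaps come from GENCODE M21 (GRCm38), promoters from RefSeq. No 2 libraries agreed within sampling noise (chi-square per degree of freedom at least 13.6).

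Members and lists were chosen with earlier results of these data known. Named were the 10 genes and, per role, the 2 tested genes with the smallest p and the highest in wild type; any others were named after their values were seen.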

Additional observations from a re-analysis of the deposited data

How the results depend on the processing

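None of the 10 genes and the 51 of related roles was called in any of 16 alternatives where it was tested; at a mean of at least 5 FPKM only 8 of the 10 and 36 of the 51 were tested. Over all genes the count was 1 in edgeR, 6 by DESeq2, 0 by limma on log2(FPKM + 0.1) (307 at an unadjusted p under 0.05) and 0 to 1 with a library left out, being 0 without knockout library 2 (383 at an unadjusted p under 0.05) or wild-type library 3 (316). Of 158 member values, 22 changed sign (8 of the 10 genes, not Anxa1 or Anxa6), and the smallest adjusted p was 0.669.

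Leaving out 1 library gave log2 fold changes of -0.20 to 0.012 for Dysf, -0.14 to 0.49 for Myof, -0.11 to 0.039 for Cav3, -0.020 to 0.15 for Trim72, 0.20 to 0.94 for Anxa1, -0.23 to 0.47 for Anxa2, -0.12 to 0.042 for Capn3, 0.087 to 0.20 for Anxa6, -0.13 to -0.0082 for Ehd1 and -0.28 to 0.0069 for Ehd2. For genes of related roles it gave -0.20 to 0.11 for Fer1l5, -0.078 to 0.045 for Pacsin3, -0.088 to 0.81 for Anxa4, -0.095 to 0.088 for Capns1, -0.15 to 0.048 for Ehbp1l1, -0.12 to 0.71 for Ahnak2, 0.15 to 0.48 for Fer1l6, -0.29 to -0.049 for Cavin4, 0.25 to 0.65 for Anxa7, 0.19 to 0.38 for Cast, -0.57 to -0.25 for Capn6, 0.14 to 0.40 for Ehd4 and -0.27 to 0.0069 for Bin1. Library totals gave 0.028 for Cav3, 0.022 for Ehd1, 0.040 for Fer1l5, 0.034 for Pacsin3, 0.064 for Capns1 and 0.013 for Ehbp1l1. The limma fit on log2(FPKM + 1) gave 0.035 for Cav3, 0.0030 for Capn3, 0.0090 for Ehd1, 0.014 for Fer1l5, 0.044 for Pacsin3 and 0.059 for Capns1, and with 0.1 in place of 1 it gave 0.035 for Cav3, 0.0031 for Capn3, 0.0089 for Ehd1, 0.031 for Fer1l5, 0.044 for Pacsin3 and 0.059 for Capns1. Quality weights in limma-voom gave -0.028 for Myof, -0.056 for Trim72, -0.22 for Anxa2, 0.033 for Pacsin3, 0.041 for Capns1 and -0.049 for Ahnak2. The slow fibre covariate gave 0.024 for Capns1. The cause was not tested. Tmem182 had an adjusted p of 0.0716 without knockout library 2, 0.0529 without wild-type library 3 and 0.0595 by limma on log2(FPKM + 0.1).

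With the replicate number as a block 1 gene passed, as without it, and Anxa1 had a log2 fold change of 0.63 (unadjusted p = 0.00759, edgeR adjusted p = 0.845). Same-numbered libraries deviated together with r of 0.52, 0.18 and -0.12 across genes, and knockout library 3 correlated best with wild-type library 2 (0.43), so the numbers were not taken to pair the libraries. Anxa1 and Myof had the fewest reads, 59 to 274 expected counts per library.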
